A study of Mus musculus with 12 samples.

Results

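RNA of Ba/F3 cells expressing ETV6 I209S P214L was compared with RNA of Ba/F3 cells expressing ETV6 P214L alone. All libraries labelled with either construct were used, 3 for I209S P214L and 3 for P214L, which makes 6 of the 12 libraries of the series. Every group, controls included, carried NRAS G12D, a mutated RAS protein that signals without its usual upstream input, and was grown without IL-3 from day 0, given new medium on day 2 and harvested on day 3. Each construct also made the green fluorescent protein ZsGreen, either by itself in the control or from an internal ribosome entry site placed behind ETV6, which was WT, P214L or I209S P214L. Ba/F3 is an established mouse line, labelled as pro-B cells, that needs IL-3 to grow unless another signal replaces it. The 6 libraries of the ZsGreen and ETV6 WT groups served as a second pair that shares no library with the comparison. Whether libraries of 1 group came from separate cultures is not in the labels, so p-values measure the spread between these libraries, which may be technical.

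ETV6 is a transcription factor of the ETS family. It lowers transcription of genes near DNA with a GGAA core, and inherited changes such as P214L are known in families with low platelet counts and a risk of leukaemia. A nuclear export signal is a short run of hydrophobic residues that the exporter XPO1 carries out of the nucleus. Per the series text, P214L creates such a signal, I209S breaks it again, and the experiment asked whether cells with both changes then resemble cells with ETV6 WT.

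Total counts ranged from 14767981 to 17241881 in the P214L libraries and from 14301683 to 18268492 in the I209S P214L libraries. Each I209S P214L library lay nearest to an ETV6 WT library, library 1 to ETV6 WT 1, and libraries 2 and 3 to ETV6 WT 2. Library I209S P214L 1 stood apart from I209S P214L 2 and 3 on the second principal component (21.2 against -6.94 and -7.63). The variance of counts between it and the others was 42.4 and 32.1 times that of sampling, against 7.20 between I209S P214L 2 and 3 and 6.34 to 9.75 among the P214L libraries. It also had the lowest share of ribosomal RNA, mitochondrial ribosomal RNA left out, 1.35% of counts, where the other 5 held 3.86% to 5.91%. ZsGreen 1 (70.7 against -7.09 and -10.2) and ETV6 WT 1 (22.4 against -1.54 and -5.09) stood apart from their groups in the same direction on that component, and no P214L library did. Counts of gene lists are given below with I209S P214L 1 and, after it is left out, as a second pair of numbers (higher and lower) in brackets where they differ; lists with none had the same numbers called. Mitochondrially encoded RNA took 1.18% to 1.24% of counts with P214L and 1.07% to 1.30% with I209S P214L. No libraries of a group held identical counts or agreed within sampling noise.

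Etv6 was not called different between the constructs. Levels are given in CPM, counts scaled to library size after TMM, which aligns libraries on the bulk of their genes. Etv6 stood at 103, 98.4 and 108 CPM with P214L and at 112, 88.6 and 96.5 CPM with I209S P214L. The ranges overlapped and the log2 fold change, given here and below as I209S P214L over P214L, was -0.06 ± 0.09 (SE, adjusted p = 0.708). The count holds reads of the cells' own gene and possibly of the construct, and does not show the changed residues. Nras was also not called, with 82.3, 78.7 and 81.7 CPM against 80.9, 68.8 and 82.2 CPM. Il3 had no count in any of the 12 libraries. Counting error alone, taken as 3 counts over a group, leaves room for 0.0642 CPM in the P214L group and 0.0608 CPM in the I209S P214L group.

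The labelled cell type was only partly visible in its markers. Of 18 B lineage genes in the table, 2 passed the filter on low counts, the antigen receptor subunits Cd79b and Cd79a. Ms4a1, Rag1, Dntt, Il7r, Igll1 and Pou2af1 had no count in any library. The list's tested genes summed to between 12.1 and 14.3 CPM in P214L libraries and to between 6.7 and 9.4 CPM in I209S P214L libraries. The ranges were 8.3 to 15.6 CPM with ZsGreen and 7.6 to 9.4 CPM with ETV6 WT. Cd79b fell from 10.5, 12.8 and 11.4 CPM to 7.95, 5.86 and 7.0 CPM (log2 fold change -0.73 ± 0.22, adjusted p = 0.0142), a call lost without P214L 2 or without I209S P214L 2. Gata2, a factor of early blood and mast cell progenitors, stood at 1717 CPM or above in all 6 libraries.

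About as many genes were higher as were lower in cells with the second change. Of 14794 genes tested, 4884 changed at an adjusted p under 0.05 by edgeR's quasi-likelihood test (33.0%), 2349 of them higher in I209S P214L cells (15.9%) and 2535 lower (17.1%). The median log2 fold change over all genes tested was 0.004. Most changes were small: 966 of the called genes differed at least 2-fold (493 higher, 473 lower), 358 at least 4-fold (158 higher, 200 lower) and 99 at least 16-fold (37 higher, 62 lower). For 7126 genes (48.2%) the 3 libraries of a group lay wholly above or below the other 3, and 4829 of these were called. Leaving out I209S P214L 1 left 4556 called genes, 4200 of them shared with the full set. By gene class, 40.0% of 11312 protein-coding genes, 13.1% of 1746 lncRNAs and 9.80% of 888 processed pseudogenes were called. In the authors' deposited table, which tests the same libraries, 5104 genes pass the same threshold, and the 4672 genes called in both point the same way.

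**Figure D1:**
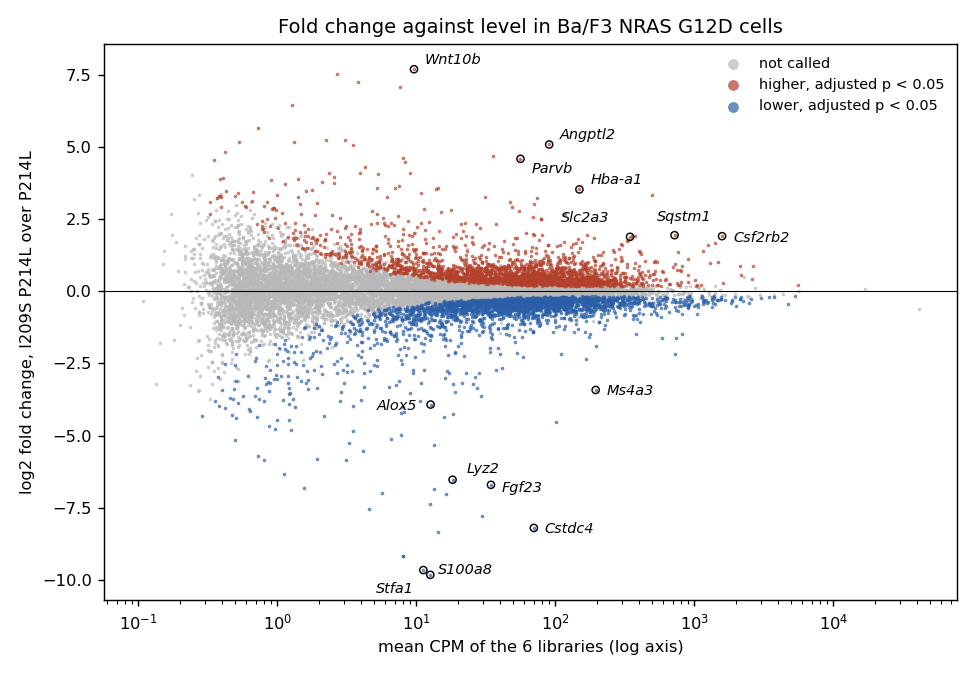
Log2 fold change of each gene, I209S P214L over P214L, against its mean CPM over the 6 libraries (log axis), with genes called higher in red, called lower in blue and the others in grey. Cstdc4 lies at -8.20 and Fgf23 at -6.70 among the falls, and Wnt10b at 7.69 and Angptl2 at 5.08 among the rises; 43 genes with no count in a group are not drawn.

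The deepest falls were in genes of neutrophils and monocytes and in the stefins, a cluster of small cysteine protease inhibitors on chromosome 16. In bulk RNA, fewer cells that express a gene and less of its RNA per cell cannot be told apart. S100a8 (chromosome 3, 90576285 to 90577342 on mm39), a subunit of the calcium-binding protein calprotectin, stood at 28.6, 17.8 and 21.1 CPM with P214L. With I209S P214L it had 0.0537 CPM in library 1, which is 1 read, and 0 in the others. The ratio of reads was 1094-fold, with a 95% counting interval of 196 to 43243. S100a9, its partner, went from 33.5, 21.1 and 25.4 CPM to 0.0537, 0.209 and 0.43 CPM (log2 fold change -6.84 ± 0.39, adjusted p = 2.83e-10). Neither gene's libraries came near to overlapping.

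Stefins fell in the same way. Csta3 (chromosome 16, 36030773 to 36038158) stood at 22.5, 15.4 and 13.1 CPM with P214L and at 0 in all 3 I209S P214L libraries, so it was at least 276-fold lower against 3 counts over the group. Stfa1 fell from 33.4, 20.1 and 22.2 CPM to 1 read in all, a ratio of 1226-fold with a counting interval of 220 to 48455. Cstdc4 fell from 192, 103 and 124 CPM to 0.43, 0.906 and 0.123 CPM (-8.20 ± 0.32, adjusted p = 2.59e-12). P214L library 1 was the highest for each of these genes. Of 10 stefins tested, 9 fell and Cstb, which lies outside the cluster by its position and was named after its value was seen, was not called (0.35, adjusted p = 0.0587). Over all genes tested, 17.1% fell. The list's median was -7.99, or -7.95 with Csta3 at its bound, and 9 fell and 1 rose without I209S P214L 1. The list's summed level went from 306 to 529 CPM down to 57.8 to 71.0 CPM. That sum includes Cstb, which was not called, so it understates the fall of the cluster. With I209S P214L the group means of Cstdc4, Cstdc5 and Csta2 were 0.486, 0.251 and 0.230 CPM. The genes of the cluster are near-identical copies, so reads may have been split between them in counting. The number of separate genes that fell is therefore uncertain.

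Other genes of the neutrophil and monocyte list fell with them. Of 24 in the table, 15 were tested and 13 fell, with a median log2 fold change of -4.37; the 1 that rose was Cebpe, a transcription factor of granulocyte maturation, at 0.46. Without I209S P214L 1, 13 fell and 0 rose. With all libraries, 15.9% of all genes tested rose and 17.1% fell. Lyz2, the lysozyme of myeloid cells, fell from 43.0, 28.7 and 36.8 CPM to 0.376, 0 and 0.737 CPM (-6.53 ± 0.41, adjusted p = 1.27e-09). Mmp8, the neutrophil collagenase, fell from 18.5, 14.9 and 14.6 CPM to a lone read, a ratio of 784-fold with a counting interval of 140 to 31024. Ngp, a neutrophil granule protein, kept 1.34, 1.05 and 1.96 CPM of its 31.5, 29.9 and 29.6 CPM (-4.37 ± 0.22, adjusted p = 5.83e-11). Ms4a3, a membrane protein of granulocyte and monocyte progenitors, went from 396, 333 and 345 CPM to 37.4, 28.5 and 34.1 CPM (-3.42 ± 0.10, adjusted p = 4.14e-14). The list summed to between 704 and 833 CPM in P214L libraries and to between 233 and 298 CPM in I209S P214L libraries. That sum includes Cebpe, with 6943 counts over the P214L group and 10176 over the I209S P214L group. Ms4a3, the next highest with I209S P214L, went from 16613 counts to 1660, so the sum understates the fall of the other members. Csf3r, Ly6g and Lyz1 of the list had no count in any library. Whether a small population of neutrophils or monocytes differed between the cultures was not tested.

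Other genes among the falls lie outside the neutrophil and stefin lists. Fgf23 (chromosome 6, 127049865 to 127058371), a hormone of bone that lowers phosphate, stood at 62.3, 75.2 and 67.5 CPM with P214L. It dropped to 0.591, 0.0697 and 1.23 CPM with I209S P214L (-6.70 ± 0.25, adjusted p = 2.04e-12). Shank3, a scaffold of synapses, fell from 11.2, 8.39 and 14.4 CPM to 0.161, 0 and 0.0614 CPM (-7.00 ± 0.60, adjusted p = 6.11e-08). Ifitm6, a membrane protein of the interferon-induced family, fell by 5.34 on the log2 scale, with no overlap between its groups. Alox5, which makes the first intermediate of leukotrienes, fell from 18.5, 26.2 and 26.7 CPM to 1.72, 1.67 and 1.29 CPM (-3.92 ± 0.20, adjusted p = 6.46e-11). Its partner Alox5ap fell by 1.10 on the same scale. Of 12 eicosanoid genes tested 1 rose and 4 fell (1 and 5 of 13), beside 15.9% and 17.1% of all genes.

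Rises were led by genes that were silent or nearly silent with P214L. Ngef (chromosome 1, 87404556 to 87501592), an exchange factor for small GTPases, had 0 counts with P214L and 11.6, 11 and 12.6 CPM with I209S P214L, at least 183-fold higher. Wnt10b (chromosome 15, 98668593 to 98676031), a secreted ligand of the Wnt pathway, had 0.0693, 0.177 and 0 CPM with P214L and 19.3, 18 and 20.3 CPM with I209S P214L (7.69 ± 0.42, adjusted p = 1.93e-10). Angptl2 (chromosome 2, 33106081 to 33137729), a secreted protein related to angiopoietins, rose from 6.65, 3.66 and 5.36 CPM to 165, 175 and 187 CPM (5.08 ± 0.13, adjusted p = 2.93e-14). The replicates of Angptl2 were tight on both sides, and its adjusted p was among the smallest of the comparison.

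Parvb, an adaptor of cell adhesion sites, rose from 4.50, 5.32 and 3.60 CPM to 103, 111 and 111 CPM (4.59 ± 0.19, adjusted p = 6.4e-12). Slc37a2, a sugar phosphate transporter, rose from 2.84, 2.66 and 2.42 CPM to 64.2, 79.8 and 61.4 CPM (4.69 ± 0.18, adjusted p = 2.04e-12). Aqp3, a channel for water and glycerol, and Il34, a ligand of the receptor Csf1r, rose by 4.61 and 3.59 on the log2 scale. For all 4 the groups were far from overlapping. Among the 15 largest rises that met a mean of 5 CPM were also Tmem171, Mcpt4, Acsbg1, Ky and Muc6, with log2 fold changes from 3.40 to 4.46.

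Globins were a further group among the rises. Hba-x, an embryonic globin, had no count with P214L and 14.8, 8.58 and 11.7 CPM with I209S P214L, at least 186-fold higher, and Hbb-y, also embryonic, was at least 106-fold higher. Hba-a1, an adult alpha globin, rose from 14.2, 36.7 and 20.1 CPM to 204, 340 and 281 CPM (3.53 ± 0.26, adjusted p = 8.17e-09). Hbb-bs, an adult beta globin, had 0, 0.295 and 0 CPM against 10.8, 19.5 and 15.3 CPM. Globin genes occur as near-identical copies whose reads may be shared. The wider erythroid and heme list was mixed, with 7 of 20 tested members higher and 5 lower (6 and 5 of 21 without I209S P214L 1). Of all genes 15.9% were higher and 17.1% lower. Tfrc, the transferrin receptor, and Alas1, the general enzyme of the first step of heme synthesis, fell by 0.76 and 1.19 on the log2 scale.

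**Figure D2:**
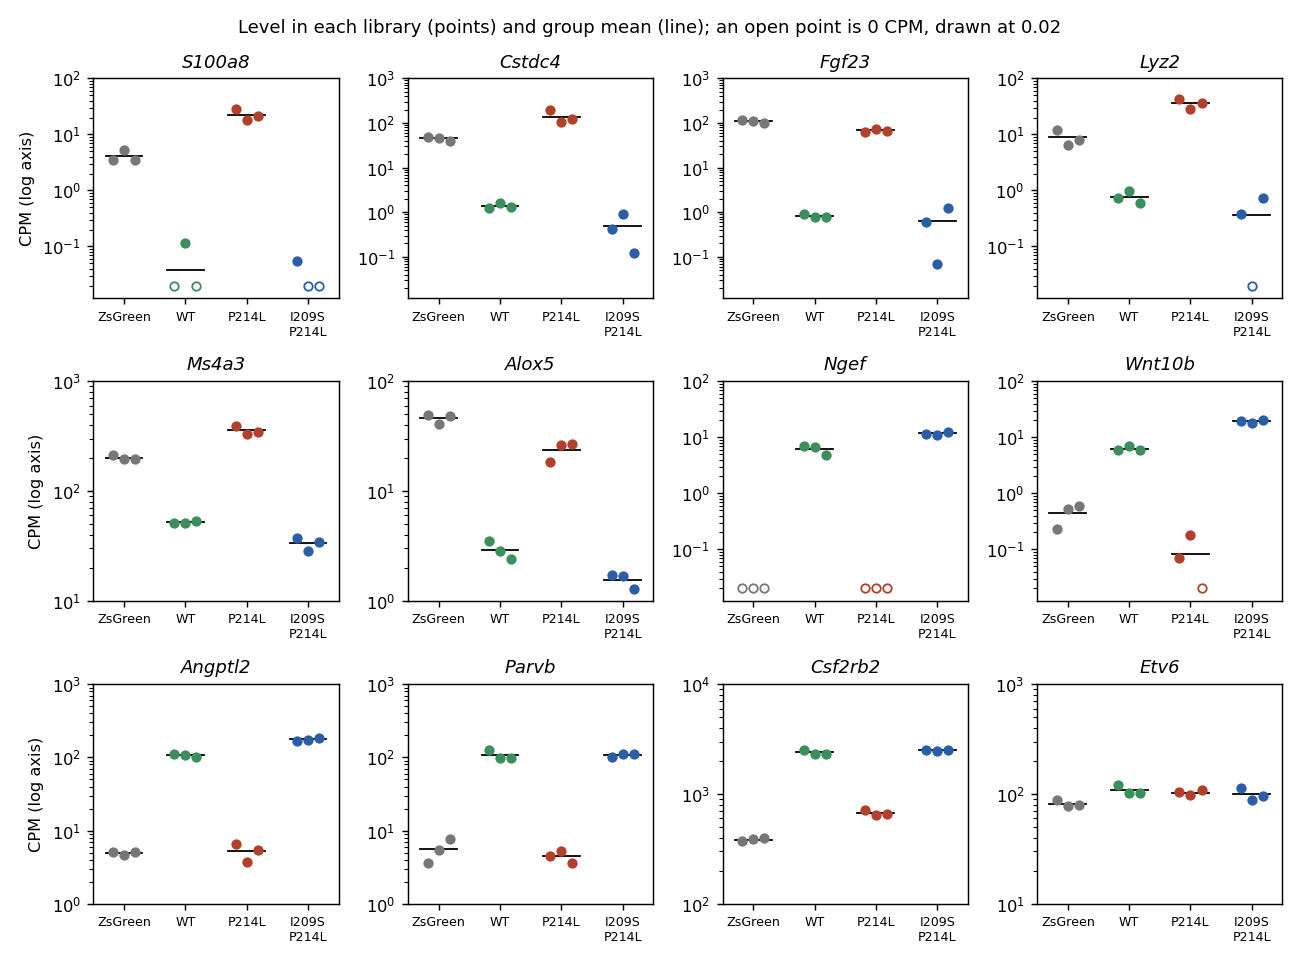
CPM of 12 genes in each of the 3 libraries of each group (points, log axis, replicates 1 to 3 from left to right) with the group mean as a line; open points are libraries with no count. S100a8, Cstdc4, Fgf23, Lyz2, Ms4a3 and Alox5 are lower, and Ngef, Wnt10b, Angptl2, Parvb and Csf2rb2 higher, in all 3 I209S P214L libraries than in any P214L library, while Etv6 overlaps at 88.6 to 112 CPM against 98.4 to 108 CPM.

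The sequences before the start sites of a pair of genes that fell and a pair that rose are shown because ETV6 is a factor for GGAA cores and these genes are among the most changed. Each is the 250 bases before the start of the RefSeq transcript on GRCm38.p6, 5′ to 3′ on the gene's strand, with GGAA and its reverse complement TTCC in capitals. The deposited gene positions are on mm39, a later build, and cannot be set beside these coordinates. S100a8 lies at chr3:90668821-90669070 (plus strand), Fgf23 at chr6:127072652-127072901 (plus strand), Angptl2 at chr2:33215711-33215960 (plus strand) and Ngef at chr1:87573871-87574120 (minus strand).
S100a8: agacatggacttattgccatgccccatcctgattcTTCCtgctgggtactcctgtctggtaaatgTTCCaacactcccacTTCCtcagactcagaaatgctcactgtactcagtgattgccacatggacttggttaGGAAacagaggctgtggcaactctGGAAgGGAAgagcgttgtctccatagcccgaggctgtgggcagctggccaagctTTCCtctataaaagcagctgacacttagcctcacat
Fgf23: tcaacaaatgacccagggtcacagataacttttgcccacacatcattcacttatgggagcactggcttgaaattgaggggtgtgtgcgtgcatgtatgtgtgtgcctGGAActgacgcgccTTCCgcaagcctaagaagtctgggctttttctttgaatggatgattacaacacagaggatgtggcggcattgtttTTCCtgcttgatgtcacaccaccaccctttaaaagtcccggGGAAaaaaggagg
Angptl2: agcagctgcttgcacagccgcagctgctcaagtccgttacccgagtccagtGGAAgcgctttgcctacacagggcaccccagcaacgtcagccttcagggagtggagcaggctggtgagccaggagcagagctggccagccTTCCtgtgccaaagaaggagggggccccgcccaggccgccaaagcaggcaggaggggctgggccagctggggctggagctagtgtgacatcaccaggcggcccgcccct
Ngef: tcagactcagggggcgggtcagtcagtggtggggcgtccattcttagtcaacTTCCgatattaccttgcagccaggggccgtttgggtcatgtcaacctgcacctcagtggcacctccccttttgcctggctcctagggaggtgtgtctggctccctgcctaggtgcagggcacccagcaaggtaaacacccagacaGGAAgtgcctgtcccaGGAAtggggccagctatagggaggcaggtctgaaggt
The S100a8 window held 7 cores on either strand, that of Fgf23 4, that of Ngef 3 and that of Angptl2 2. The longer word CGGAAG, or CTTCCG on the other strand, which contains the core, occurred once before Fgf23 and once before Ngef, and CCGGAAGT, the usual high-affinity ETS word, in none of the 4. Of 27025 genes with a window, 94.2% held GGAA or TTCC, 15.3% held CGGAAG or CTTCCG, and 3.23% held CCGGAAGT or ACTTCCGG. Neither a match nor its absence from these windows says whether ETV6 binds there. A comparison of called genes with all genes was void, since genes matched a window incompletely and unequally. Of the genes that rose 77.6% matched, of those that fell 78.9%, and of all genes tested 66.8%.

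Among the parts of the IL-3 receptor, the signalling chains rose and the ligand-binding chain was not called. Csf2rb, the beta chain shared by the receptors of IL-3, IL-5 and GM-CSF, rose from 720, 656 and 638 CPM to 2315, 2052 and 2108 CPM (1.68 ± 0.07, adjusted p = 7.59e-12). Csf2rb2, the beta chain of mice that serves IL-3 alone, rose from 709, 638 and 655 CPM to 2532, 2469 and 2511 CPM (1.91 ± 0.06, adjusted p = 1.59e-13). The genes are similar neighbours on chromosome 15 and may share reads. Il3ra, the alpha chain, stood at 70.3, 65.6 and 64.1 CPM against 82.9, 69.7 and 76.4 CPM, overlapping between groups (0.20 ± 0.10, adjusted p = 0.162). Of 17 tested genes of the receptor axis and its STAT5 feedback, 4 rose and 3 fell (3 and 5 without I209S P214L 1). These shares, 23.5% and 17.6%, stand beside 15.9% and 17.1% of all genes. Pim1, a kinase induced by STAT5, fell by 0.66 on the log2 scale and Spred2, an inhibitor of RAS signalling, by 0.42.

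The RAS pathway moved by smaller steps. Of 18 core members tested 8 rose and 2 fell, where 15.9% and 17.1% of all genes did. Ksr1, a scaffold of the kinase cascade, and Rasa1, a protein that switches RAS off, rose by 0.82 and 0.63, and Grb2, an adaptor upstream of RAS, fell by 0.64 on the log2 scale. Of 17 targets and feedback genes of the MAP kinases 7 rose and 3 fell, with Phlda1 (1.56), Egr2 (1.28), Spred3 (0.89) and Spred1 (0.65) named by the smallest adjusted p. Leaving out I209S P214L 1 gave 8 and 3 for the core, and 6 and 3 of 18 for the targets. The targets did not share a direction.

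Interferon-stimulated genes were mostly higher with I209S P214L. Of 32 tested members 21 rose and 2, Ifitm6 and Ifitm3, fell, with a list median of 0.76 (19 and 2 without I209S P214L 1). These shares, 65.6% and 6.25%, stand beside 15.9% and 17.1% of all genes. Oasl2, a relative of the antiviral oligoadenylate synthetases, rose from 9.91, 9.04 and 11.6 CPM to 43.9, 46.8 and 50.1 CPM (2.21 ± 0.13, adjusted p = 6.68e-10). Irf7, a transcription factor that amplifies the interferon response, rose from 18.7, 20.1 and 20.9 CPM to 67.2, 63.9 and 66.4 CPM (1.73 ± 0.11, adjusted p = 7.79e-10). Both genes were more than 3 times the P214L level in every I209S P214L library.

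Genes of MHC class I presentation, which shows peptides to T cells, moved in the same direction. Of 17 tested, 9 rose and 1, the chaperone Calr, fell (8 and 1), and the median was 0.32. H2-T23, a non-classical class I chain, rose from 120, 130 and 120 CPM to 327, 320 and 300 CPM (1.35 ± 0.07, adjusted p = 4.15e-11). B2m, the light chain of class I, rose from 421, 409 and 402 CPM to 607, 634 and 631 CPM (0.60 ± 0.07, adjusted p = 2.07e-06), and Nlrc5, the factor that drives class I genes, by 0.97 on the log2 scale. Class I heavy chains resemble each other, so their reads may be shared. In the list of NF-kB subunits and inhibitors 7 of 17 rose and 4 fell (5 and 4 without I209S P214L 1), beside 15.9% and 17.1% of all genes. Nfkbiz was higher (1.53) and Tnf and Nfkbia lower (-1.16 and -0.87).

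Growth genes fell together, by less than 2-fold in most cases. Mitosis and spindle genes fell in 33 of 35 tested, DNA replication genes in 29 of 36 and ribosome biogenesis genes in 27 of 30, against 17.1% of all genes. Median log2 fold changes were -0.59, -0.50 and -0.46. The counts were 33, 29 and 27 without I209S P214L 1 as well. Ube2c, which charges the ubiquitin ligase that ends mitosis, fell from 178, 179 and 170 CPM to 99.7, 87.7 and 102 CPM (-0.86 ± 0.08, adjusted p = 1.33e-07). Mcm10, a factor that starts replication forks, fell from 91.4, 90.7 and 88.6 CPM to 49.5, 43.3 and 48.1 CPM (-0.94 ± 0.08, adjusted p = 8.78e-08). Nop56, a protein of the particles that modify ribosomal RNA, fell from 257, 281 and 271 CPM to 151, 162 and 161 CPM (-0.77 ± 0.06, adjusted p = 2.79e-08).

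Myc, the transcription factor of growth, fell from 173, 172 and 185 CPM to 116, 103 and 100 CPM (-0.73 ± 0.09, adjusted p = 4.07e-06). It was the 1 member of 11 tested in the network of MYC and its partners that fell, while 5 rose (4 and 1), among them Mxd1 (1.07) and Mxi1 (0.33), which compete with MYC for its partner MAX. Odc1, the first enzyme of polyamine synthesis, fell from 193, 207 and 210 CPM to 121, 104 and 113 CPM (-0.85 ± 0.07, adjusted p = 2.54e-08). Srm, which follows it, fell by 1.31, whereas Sms and Azin1 in the same list rose by 0.56 and 0.47. In that list 4 of 11 rose and 3 fell (5 and 2), beside 15.9% and 17.1% of all genes.

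Of 26 nucleotide synthesis genes 1 rose and 21 fell, at a median of -0.50 (2 and 21). Of 29 genes of cholesterol and fatty acid synthesis 1 rose and 22 fell, at a median of -0.65 (1 and 21). Over all genes tested, 15.9% rose and 17.1% fell. Mthfd2, a mitochondrial enzyme of folate metabolism, fell from 67.8, 59.6 and 62.1 CPM to 27.3, 24.7 and 27.6 CPM (-1.25 ± 0.10, adjusted p = 1.62e-08). Idi1, an enzyme of the isoprenoid pathway, fell from 26.1, 25.4 and 23 CPM to 9.02, 6.83 and 7.37 CPM (-1.67 ± 0.14, adjusted p = 4.51e-08). The serine and asparagine enzymes Phgdh, Asns and Psat1 fell by 1.15, 1.14 and 1.02, within a list of amino acid response and tRNA charging genes in which 2 of 27 rose and 14 fell (2 and 15).

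Translation and energy genes were lower in part. Of 82 cytosolic ribosomal proteins 0 rose and 44 fell (0 and 46), of 74 mitochondrial ones 0 and 32 (0 and 34), and of 61 respiratory chain genes 1 and 33 (1 and 36). Their medians lay between -0.29 and -0.34. The share of all genes that fell was 17.1%. Of 25 translation factors 4 rose, near the 15.9% of all genes, and 13 fell (1 and 11), and their summed level overlapped, at 33026 to 34611 CPM with P214L and 33032 to 34167 CPM after the second change. Of 38 proteasome genes 1 rose and 21 fell (0 and 19), and of 26 chaperones 3 rose and 16 fell, with Ern1, the sensor of unfolded proteins, higher at 1.04. Of 36 nuclear transport genes 0 rose and 26 fell (0 and 25), at a median of -0.31. Xpo1, the exporter that reads the signal made by P214L, fell from 223, 222 and 229 CPM to 156, 163 and 157 CPM (-0.50 ± 0.06, adjusted p = 4.93e-06).

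Some cell cycle inhibitors rose. Cdkn2a, which encodes brakes on CDK4 and on MDM2, rose from 1.80, 2.42 and 2.16 CPM to 10.9, 9.34 and 10.7 CPM (2.27 ± 0.29, adjusted p = 7.23e-06). Cdkn2b, its neighbour, rose by 1.63 and Rb1 by 0.65, while E2f8 fell by 0.99. In the whole list of cyclins, kinases and inhibitors 5 of 23 rose and 12 fell (5 and 13 of 24). Of the p53 targets 4 of 19 rose and 8 fell (4 and 10), and of the BCL2 family 3 of 13 rose and 5 fell (3 and 6), where 15.9% of all genes rose and 17.1% fell. The shares that rose lie near that of all genes, and the 8 calls in the BCL2 family became 5 without I209S P214L 3. The death gene Bcl2l11 rose by 0.91.

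Lysosome genes rose in 19 of 31 tested and fell in 3, at a median of 0.39 (17 and 3). Psap, the precursor of lipid-degrading cofactors, rose by 0.79 on the log2 scale. Mitf, a factor that drives lysosomal and mast cell genes, rose from 6.51, 7.92 and 7.52 CPM to 40.0, 38.6 and 34.8 CPM (2.37 ± 0.17, adjusted p = 5.51e-09). In the same family Tfeb rose by 0.76 and Tfe3 fell by 0.40. Sqstm1, a cargo receptor of autophagy, rose from 321, 293 and 280 CPM to 1242, 1070 and 1124 CPM (1.94 ± 0.08, adjusted p = 6.4e-12). Of 19 autophagy genes 6 rose and 3 fell (5 and 2), beside 15.9% and 17.1% of all genes. Hmox1, which breaks down heme, rose from 54.7, 52.0 and 56.2 CPM to 169, 153 and 167 CPM (1.59 ± 0.10, adjusted p = 8.25e-10), and of 21 NRF2 targets 10 rose and 4 fell (9 and 4).

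Of 27 genes of glycolysis and hypoxia 4 rose, a share near the 15.9% of all genes, and 10 fell, against 17.1% of all genes (4 and 9). Slc2a3, a high-affinity glucose transporter, rose from 145, 139 and 157 CPM to 530, 557 and 543 CPM (1.89 ± 0.06, adjusted p = 3.82e-13). The glycolytic enzymes Pgk1 and Hk2 fell by 0.76 and 0.61 on the log2 scale.

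**Figure D3:**
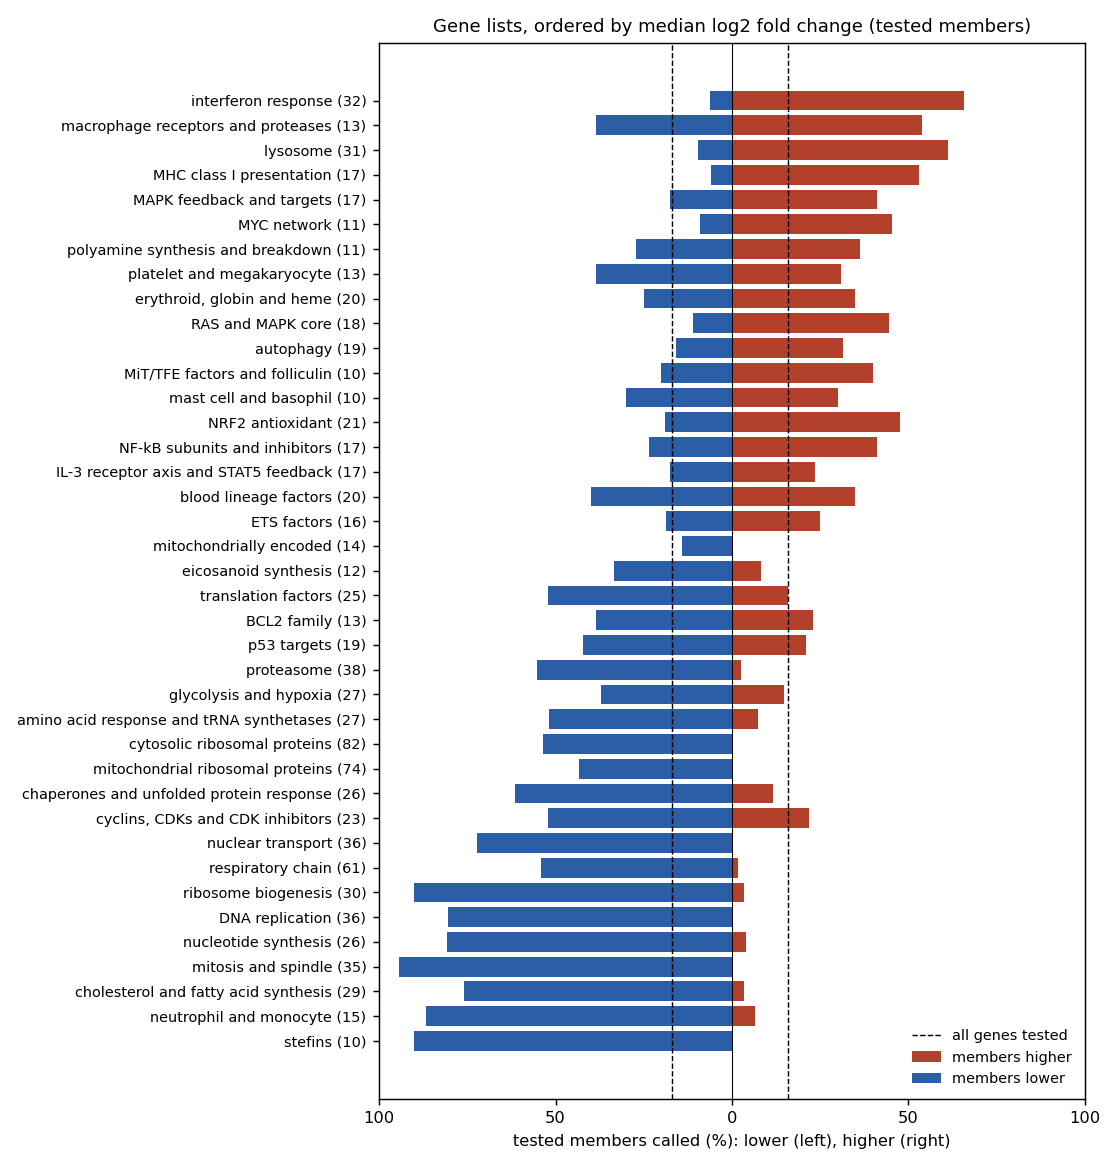
Share of the tested members of each of 39 gene lists that were higher (red, right) or lower (blue, left) with I209S P214L, with the number tested in brackets and lists ordered by median log2 fold change; dashed lines mark all genes tested, 15.9% and 17.1%. Interferon, lysosome and macrophage genes reach farthest to the right, and mitosis, ribosome biogenesis, stefin and neutrophil genes farthest to the left.

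Blood lineage regulators went both ways, 7 of 20 higher and 8 lower (6 and 8). Lmo2, a bridging protein of stem cell and erythroid complexes, fell from 66.9, 67.6 and 63.4 CPM to 15.2, 13.7 and 15.5 CPM (-2.16 ± 0.10, adjusted p = 3.49e-11), and Hhex by 1.5. Gata2 rose from 1793, 1750 and 1717 CPM to 2917, 2384 and 2492 CPM (0.57 ± 0.09, adjusted p = 4.8e-05), and Id2, which blocks helix-loop-helix factors, by 0.84. In the ETS family, to which ETV6 belongs, 4 of 16 rose and 3 fell (25.0% and 18.8%), beside 15.9% and 17.1% of all genes. Erg, a stem cell member, fell from 18.9, 13.4 and 17.8 CPM to 2.69, 1.67 and 2.52 CPM (-2.85 ± 0.21, adjusted p = 9.26e-09), while Elk3 rose by 0.77 and Elf1 fell by 0.46.

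Markers of other cells gave no common direction. Macrophage receptors and proteases rose in 7 of 13 and fell in 5, at a median of 0.74. Without I209S P214L 1, 14 genes were tested instead of 13, 6 rose, 5 fell and the median was 0.06. With the first libraries of ZsGreen, ETV6 WT and I209S P214L left out, 13 were tested. Of those 7 rose and 5 fell, at a median of 0.66, so the median also depended on which genes were tested. C3ar1, a complement receptor, rose from 16.8, 12.6 and 13.0 CPM to 135, 128 and 136 CPM (3.24 ± 0.13, adjusted p = 4.56e-12), and the inhibitory receptor Lilrb4a by 1.83, whose reads may be shared with its copy. Clec4e, a receptor for fungal and mycobacterial lipids, fell by 1.49. Mast cell and basophil genes rose in 3 of 10 and fell in 3, with the proteases Mcpt4 and Cma1 higher (4.06 and 1.91) and Ms4a2, a subunit of the IgE receptor, lower (-2.87). Platelet and megakaryocyte genes rose in 4 of 13 and fell in 5. The counts of these lists stand beside 15.9% of all genes higher and 17.1% lower. Selp, a platelet adhesion protein, fell by 1.38 on the log2 scale.

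T lineage and stromal genes were close to absent. Of 14 T lineage genes 3 were tested and 1, the transcription factor Tcf7, rose, from 0.208, 0.118 and 0.458 CPM to 2.42, 3.14 and 3.38 CPM, with Cd8a, Cd8b1, Trbc1 and Trbc2 at 0 in every library. Acta2, a smooth muscle actin and the lone stromal gene tested, fell from 8.66, 6.85 and 11 CPM to 2.15, 1.05 and 1.78 CPM (-2.39 ± 0.30, adjusted p = 7.32e-06). Col1a2, Col3a1 and Pdgfra had no count. Of the 14 mitochondrially encoded genes tested 0 rose and 2 fell (0 and 1), mt-Nd1 and mt-Cytb, the latter a call lost in 6 of 14 other fits. The share that fell, 14.3%, lies near the 17.1% of all genes, and 15.9% of all genes rose.

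The same genes were then examined in the pair of groups that shares no library with this comparison, ETV6 WT against ZsGreen, in which 5580 genes were called (37.7%). Both comparisons called 3905 genes, and 3881 of these moved the same way (1900 higher, 1981 lower), which is 79.5% of the I209S P214L calls and 69.6% of the ETV6 WT calls. Across 10118 genes with a mean of at least 5 CPM and a count in each group, Pearson's r of the log2 fold changes was 0.886, as a description across genes, which are not independent replicates. The median ratio of the effects, I209S P214L over P214L to ETV6 WT over ZsGreen, was 0.915 among genes called in the same direction. The first libraries of ZsGreen, ETV6 WT and I209S P214L stood apart in the same direction on the second principal component. Without these 3 libraries, 3977 genes were called in both, 3945 of them in the same direction, the median ratio was 0.921 and r was 0.864 over 10115 genes. Fgf23 had 114, 111 and 99.6 CPM with ZsGreen and 0.916, 0.798 and 0.798 CPM with ETV6 WT. Parvb had 3.56, 5.46 and 7.70 CPM against 127, 98.9 and 99.6 CPM in those groups, close to the P214L and I209S P214L values above. Ngef was at 0 in the ZsGreen libraries too, and at 7.08, 6.61 and 4.89 CPM with ETV6 WT.

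The difference of the effects was tested for every gene and called for 187 (1.26%), of which 169 were negative, meaning that the step from P214L to I209S P214L lay below the step from ZsGreen to ETV6 WT. Of 15 tested neutrophil and monocyte genes 6 had a negative difference, and of 13 macrophage genes 7. Cd33, which binds sialic acid on myeloid cells, had a log2 fold change of -4.24 between the ETV6 mutants and of -0.52 (not called) between ZsGreen and ETV6 WT, a difference of -3.72 ± 0.43 (adjusted p = 0.000107). It stood at 43.2, 26.4 and 34.5 CPM with P214L, at 6.49, 7.39 and 4.99 CPM with ZsGreen, at 3.66, 4.27 and 5.16 CPM with ETV6 WT and at 1.72, 0.697 and 3.01 CPM with I209S P214L. The P214L group alone stood high. Prg2, a granule protein of eosinophils, showed the same order, with 310, 264 and 262 CPM with P214L and between 48.7 and 84.9 CPM in every library of the other groups (difference -2.12 ± 0.13, adjusted p = 8.9e-08).

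Cstdc4 (-3.20), Lyz2 (-3.0), Itgam (-2.81), Ngp (-2.11), Trpm2 (-1.98), Siglecf (-1.90) and C1ra (-1.85) also had called negative differences. Cstdc4 and Lyz2 stood higher with P214L than with ZsGreen, by 1.63 and 2.03 on the log2 scale (adjusted p = 3.85e-05 and 0.000274). Reads over the ETV6 WT and I209S P214L groups were few, 74 and 23 for Cstdc4 and 40 and 19 for Lyz2. S100a8 was also higher with P214L than with ZsGreen (2.46, adjusted p = 4.65e-05), whereas Fgf23 was lower (-0.67, adjusted p = 0.0154). Itgam is an integrin chain of phagocytes, Trpm2 a calcium channel, Siglecf a receptor of eosinophils and C1ra a complement protease. Wnt10b had a positive difference, 3.90 ± 0.66 (adjusted p = 0.00337). Its size is imprecise, since it rests on 22 reads over the ZsGreen group and 4 over the P214L group. Csf2rb and Csf2rb2 rose in both pairs of groups but by less between the mutants (differences -0.88 and -0.73, adjusted p = 7.16e-05 and 7.03e-05). P214L cells stood at 638 to 720 CPM and ZsGreen cells at 336 to 394 CPM for these genes. No interferon, MHC class I, mitosis, DNA replication or ribosome biogenesis gene of the lists had a called difference, which does not show that these effects were equal.

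**Figure D4:**
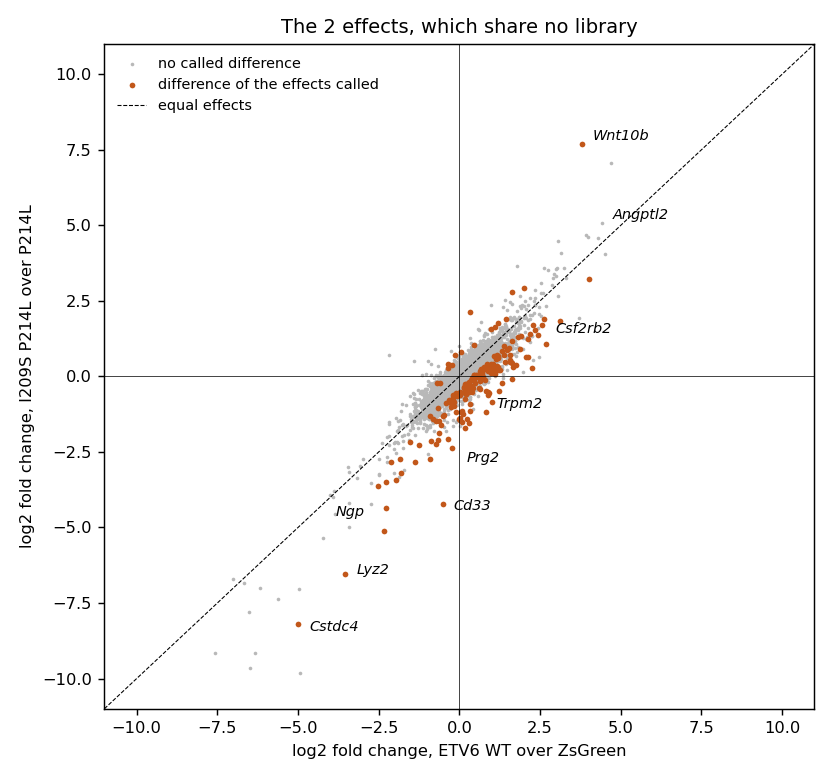
Log2 fold change of I209S P214L over P214L against that of ETV6 WT over ZsGreen for 10118 genes, with the line of equal effects dashed and the 183 drawn genes whose difference was called in orange. Most genes follow the line, and the orange genes lie mainly below it, Cd33 and Prg2 among them, with Wnt10b above.

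Set directly against ETV6 WT, I209S P214L cells differed in 5 genes, of which 4 are described here, named after their values were seen, with 512 genes at an unadjusted p under 0.05. This comparison uses the same I209S P214L libraries as the main one. Ms4a3 was lower (log2 fold change over ETV6 WT -0.63, adjusted p = 0.0141), as was F630028O10Rik, a lncRNA gene (-0.48, adjusted p = 0.045). Wnt10b and Angptl2 were higher than with ETV6 WT, by 1.61 and 0.72 (adjusted p = 0.0216 and 0.0141). For these 4 genes the libraries of the groups did not overlap. The count was sensitive to the tool and to the libraries used: DESeq2 called 23 genes, limma-voom 3, edgeR 8 without the first libraries of ZsGreen, ETV6 WT and I209S P214L, and without I209S P214L 2 or I209S P214L 3 edgeR called 1.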

How the data were processed

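Poly-T selected RNA of 12 libraries was sequenced, and 6 of them make the main comparison. Counts per gene were deposited by the authors; the submitters' processing notes name HISAT2 2.0.5, featureCounts 1.5.0-p3 and mm39. The authors' deposited table also gives log2 fold changes and p-values for pairs of groups, made by steps not given in the sources used here, and these were used only to count shared calls. The labels' protocol describes directional and non-directional kits, so reads of overlapping or antisense genes may not be separable.

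Counts were tested with edgeR 4.0.16 in R 4.3.3 (filterByExpr, TMM, quasi-likelihood, 1 mean per group, all 12 libraries sharing one estimate of spread), with Benjamini-Hochberg adjustment over 14794 genes and calls at 0.05. Of 56748 deposited genes 30009 had no count in any library. The procedure was tested on simulated data. Named genes are the 15 largest rises and 15 largest falls among called protein-coding genes with established symbols, a mean of at least 5 CPM and no overlap between groups; up to 4 genes per list, by lowest adjusted p; the 10 widest called differences of effects; and 7 genes of the construct, export and IL-3 systems. Cebpe, Cstb, Ifitm3 and Calr were named after their values were seen. Members and lists were chosen with earlier results of these data known. DESeq2 1.42.0, limma 3.58.1, other scalings and filters, and fits leaving out libraries were alternatives. Same-numbered P214L and I209S P214L libraries did not deviate together (correlations -0.0476 to 0.0182). Those of ETV6 WT and I209S P214L gave 0.528, 0.0786 and 0.254, so not every pair passed 0.1, and the numbers were not taken to pair libraries. Promoter windows are RefSeq's on GRCm38.p6. Results for some genes are not reported here.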

Additional observations from a re-analysis of the deposited data

How the results depend on the processing

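The comparison of I209S P214L with P214L called 4884 genes, and between 3943 (without P214L 2) and 5526 (first libraries of ZsGreen, ETV6 WT and I209S P214L left out) in the other fits. Leaving out a library each gave 3943 to 4556 genes. The replicate block gave 5102 genes; the labels do not say that numbers pair libraries, P214L and I209S P214L libraries of the same number did not deviate together, and of ETV6 WT and I209S P214L the libraries numbered 1 and 3 did. ETV6 WT 2 correlated better with I209S P214L 3 (0.147) than with its own number (0.0786). Of 194 named genes 186 were called, 184 of them in all 14 other fits, and none reversed. The count of differences between the effects was less stable: 187 genes became 385 with no filter on low counts, 378 with DESeq2, 282 with the first libraries left out, and 115 (without P214L 1) to 222 (without I209S P214L 1) when a library was left out; without P214L 3 it was 119. The replicate block gave 251. Against ETV6 WT, 5 genes became 38 with no filter, 23 with DESeq2, 3 with limma-voom, 8 with the first libraries left out and 1 to 4 with a library left out, and 4 with the replicate block; the causes were not tested. The overlap of the effects without the first libraries was computed after seeing the data. With 3 libraries a group and genes near 0 counts, small differences and the size of the widest folds are the least precise values.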
